A study of Mus musculus with 6 samples.

Results

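The genes described here are 10 of eicosanoid and thromboxane synthesis, enzymes and an accessory protein, Alox12, Alox5, Alox5ap, Ltc4s, Ptgs1, Ptgs2, Tbxas1, Hpgds, Hpgd and Pla2g4a, and they were taken by every probe set that the array annotation assigns to one of them alone. This found 12 probe sets for 9 of the 10 genes, out of 18193 genes with a probe set of their own and 45101 probe sets in all. Ptgs1, the constitutive cyclooxygenase, had no probe set under its symbol in the annotation used and was not analysed here. All 12 probe sets passed the filter that left out the dimmer 50% of probe sets, so all 9 measured genes were tested.

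Expression was measured on 6 arrays of megakaryocytes, the cells that shed platelets, grown from mouse fetal liver in thrombopoietin and enriched on a gradient of bovine serum albumin. The strain background was mixed, C57BL/6xSv129. The 3 control cultures were FOG1+/- (replicates 1 and 2) and FOG1+/+ (replicate 3). The 3 other cultures were FOG1-/- ki/ki, called FOG1 ki/ki here. Their label was read here as a knocked-in allele in place of the normal gene. FOG1, the product of Zfpm1, works together with GATA transcription factors, and the labels do not say what the knocked-in allele changes, how old the fetuses were or whether fetuses were pooled.

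Eicosanoids are signalling lipids made from arachidonic acid, which cytosolic phospholipase, encoded by Pla2g4a, cuts from membrane lipids. Cyclooxygenases turn it into a prostaglandin precursor that thromboxane synthase (Tbxas1) converts to thromboxane, the platelet agonist whose synthesis aspirin blocks. Lipoxygenases oxidise the same fatty acid, Alox12 in platelets and, in leukocytes, Alox5, which with its activating protein Alox5ap feeds the synthesis of leukotrienes.

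Signals are MAS5 intensities on a linear scale, and differences are log2(signal + 16), FOG1 ki/ki minus control. A signal does not rank one gene above another in abundance, since probe sets differ in how they bind, so results are differences between arrays. Where marker genes are called the brightest of their list, this only says how they were picked for naming. Zfpm1 read 430, 862 and 1137 in controls and 480, 868 and 1274 in FOG1 ki/ki, which does not check the genotype labels because a knocked-in allele can be transcribed. The megakaryocyte genes Pf4 and Ppbp, which encode platelet chemokines, were bright on all 6 arrays, at 3358 to 4156 and 2724 to 3797. The median signal of an array was 10.3, 12.2 and 7.75 in control replicates 1, 2 and 3 and 12.3, 11.1 and 5.93 in FOG1 ki/ki. Both replicate 3 arrays thus had the lowest medians, and whether this affected the signals of single genes was not tested. Arrays that share a replicate number resembled each other, so each gene is also given within its 3 pairs.

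Alox12 stood far lower in FOG1 ki/ki, Alox5 and Ptgs2 somewhat higher, Hpgd somewhat lower, and Pla2g4a, Tbxas1 and Alox5ap close to control. With limma and Benjamini-Hochberg adjustment over 11260 genes 0 of the 9 passed the threshold of 0.05, where 0.151% of all genes tested did. With the replicate number as a block 0 passed as well, against 0.835% of all genes. At an unadjusted p under 0.05 the count was 1 of 9, Alox12, against 6.69% of all genes, and with the block 4 of 9, Alox12, Alox5, Ptgs2 and Hpgd, against 18.4%. The median difference of the 9 genes was -0.03, and that of all genes tested was 0.03. Of the 9 genes, 5 differed in the same direction in all 3 pairs, Alox5 and Ptgs2 upward and Alox12, Tbxas1 and Hpgd downward, where 44.2% of all genes did. That is 2 of 9 upward, against 24.8% of all genes, and 3 of 9 downward, against 19.3%.

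**Figure D1:**
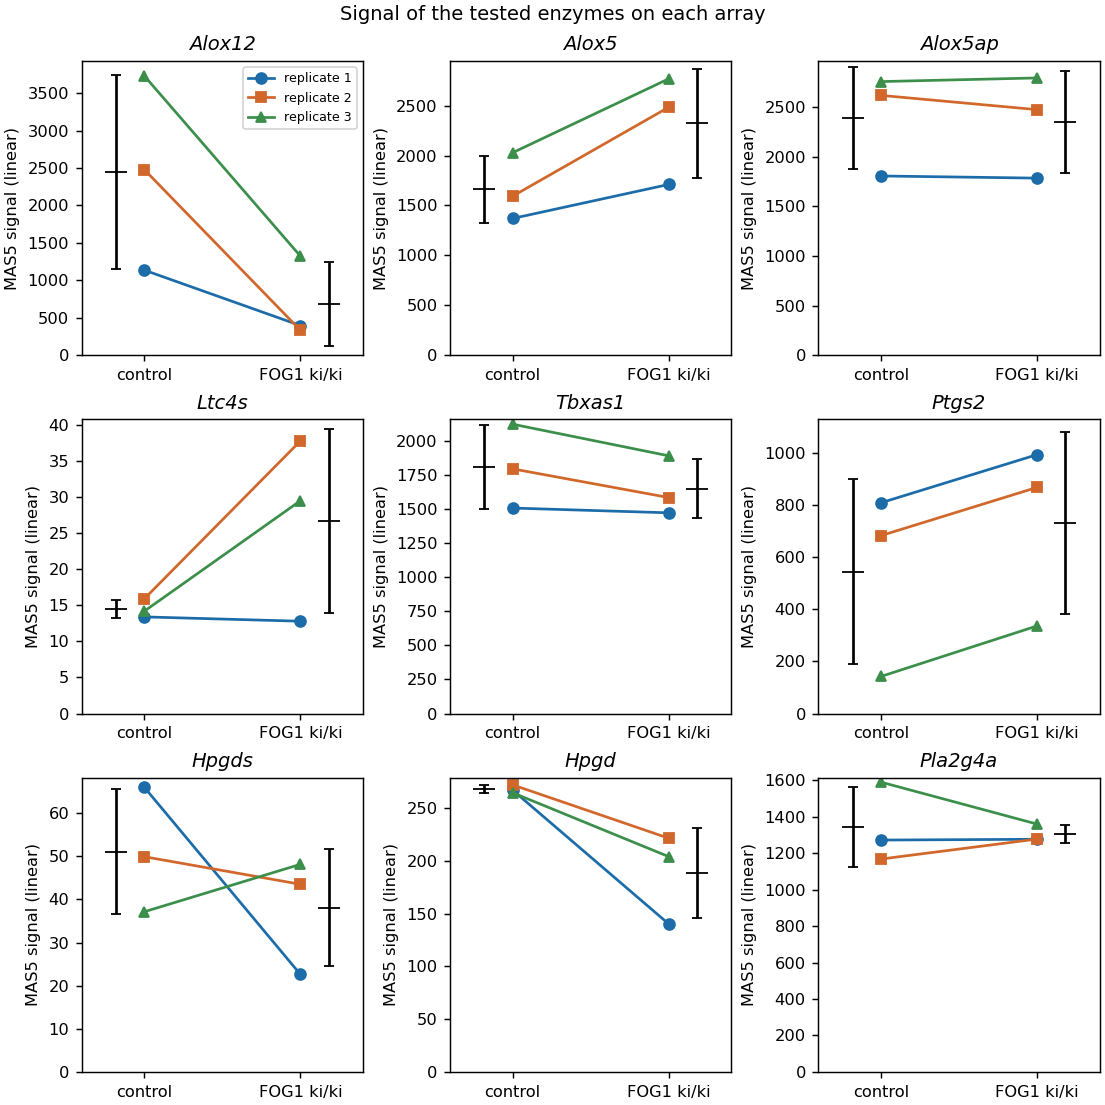
MAS5 signal (linear axis from 0) of the probe set used for each of the 9 genes, on the 3 control and 3 FOG1 ki/ki arrays; lines join arrays of one replicate number, and the black marks give the mean ± SD of a group (n = 3). Alox12 is lower at the right end of all 3 lines, with 1136, 2479 and 3731 against 395, 332 and 1322, while Alox5ap is nearly level along each line.

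Alox12 encodes the lipoxygenase of platelets. Its brighter probe set read 1136, 2479 and 3731 in control replicates 1, 2 and 3 and 395, 332 and 1322 in FOG1 ki/ki replicates 1, 2 and 3. The FOG1 ki/ki array of each pair was the lower one, but the groups overlapped, because FOG1 ki/ki replicate 3 read above control replicate 1. The control mean was 2449 ± 1298 and the FOG1 ki/ki mean 683 ± 554 (SD, n = 3 each). The difference was -1.94 (SE 0.58, 95% interval -3.29 to -0.59, limma adjusted p = 0.443), a geometric mean 3.83-fold lower in FOG1 ki/ki. Within pairs 1, 2 and 3 it was -1.49, -2.84 and -1.49.

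With the replicate block the interval of the Alox12 difference narrowed to -2.61 to -1.26, and the limma adjusted p was 0.0504, just over the threshold. Other settings of the blocked fit, added after this value was seen, put it on either side. It passed in 4 of 8 such settings, with limma adjusted p from 0.0404 to 0.139. It also passed in 3 of 3 blocked fits that left out one pair (limma adjusted p from 0.0107 to 0.0187). Those 3 fits called 331, 114 and 310 genes in all, against 94 with all pairs. With so few arrays left, limma takes the variance of a gene largely from that of all genes. Their passes are therefore no check on the fit with all pairs. Unblocked fits that left out 1 array or a pair gave Alox12 a limma adjusted p of 0.270 or more. Of 11260 genes tested, 42 including Alox12 had a difference as low or lower. Alox12 thus had one of the lower differences on these arrays, without a call by the test as planned.

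A second, dimmer Alox12 probe set, designed on the same transcript, read 74.1, 281 and 712 in controls and 25.9, 22.5 and 93.7 in FOG1 ki/ki. Its difference was -2.26, with pair differences of -1.10, -2.95 and -2.73. Both probe sets thus had the FOG1 ki/ki array lower in each pair and the highest control signal in the FOG1+/+ culture, replicate 3. Replicate 3 was also the highest of the FOG1 ki/ki arrays in both sets. The control genotype and the replicate number cannot be told apart here. This second set overlapped between groups on the same arrays, FOG1 ki/ki replicate 3 and control replicate 1. Without the FOG1+/+ array, but with FOG1 ki/ki replicate 3 kept, the difference of the brighter set was -1.56 (limma adjusted p = 0.598). Without both replicate 3 arrays it was -2.16 (limma adjusted p = 0.270).

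Other megakaryocyte genes were also below control, by less. Of 11 tested genes of the 14 on the megakaryocyte marker list, 11 were below control, where 44.9% of all genes were. They ranged from -1.35 for Gp6, followed by Tubb1 (-1.01) and Gp1bb (-0.52), to -0.003 for Pf4. Ppbp (-0.05) and Itga2b (-0.07) were also near control. With the block 1 passed, Gp6, the platelet collagen receptor, which fell, where 0.835% of all genes passed. The summed signal of the list was 21376 to 28800 in controls and 18944 to 24215 in FOG1 ki/ki, which is -0.17, -0.44 and -0.19 on the log2 scale in pairs 1, 2 and 3. On the log2 scale, Alox12 relative to that sum, in which Pf4 and Ppbp weigh most, had pair differences of -1.31, -2.40 and -1.30. The part of megakaryocyte content in the Alox12 values was not tested. In bulk cultures, fewer cells of a type and less RNA per cell cannot be told apart.

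The proximal promoters of Alox12 and Alox5, the 2 lipoxygenases tested, are shown because their genes stood on opposite sides of control and because FOG1 acts through GATA factors. Each is the 250 bases before the RefSeq start site, 5′ to 3′ on the strand of the gene. Capitals mark GATA, the core of GATA factor motifs, and GGAA, the core of ETS factor motifs, on either strand, so that TATC and TTCC are marked too. The Alox12 window is chr11:70255371-70255620 and the Alox5 window chr6:116461179-116461428, both on the minus strand of GRCm38.p6.
Alox12: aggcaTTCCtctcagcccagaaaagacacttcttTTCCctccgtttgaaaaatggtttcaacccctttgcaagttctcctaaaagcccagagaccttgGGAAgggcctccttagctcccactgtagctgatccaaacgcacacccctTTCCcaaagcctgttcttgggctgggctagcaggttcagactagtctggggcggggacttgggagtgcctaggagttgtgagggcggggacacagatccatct
Alox5: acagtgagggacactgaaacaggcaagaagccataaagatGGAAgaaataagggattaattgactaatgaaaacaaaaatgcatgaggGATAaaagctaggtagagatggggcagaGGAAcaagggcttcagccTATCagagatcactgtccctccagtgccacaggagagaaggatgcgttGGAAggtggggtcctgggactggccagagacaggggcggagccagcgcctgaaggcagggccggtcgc

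The Alox12 window held 0 GATA and 4 GGAA, and the Alox5 window 2 GATA, 162 and 116 bases before the start site, and 3 GGAA. RefSeq windows were found for 9 of the 10 genes, Alox5ap being the one without, and Pla2g4a had 2, which made 10 windows. GATA was in 4 of these 10 windows, those of Alox5, Ltc4s, Ptgs1 and 1 of Pla2g4a, against 53.6% of 32851 windows of the same length in the table. GGAA was in 10 of 10, against 93.4%. The longer AGATAA, which contains GATA, was in 0 of 10, against 9.99%. These are matches of letters in short windows and say nothing of binding there or elsewhere.

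The genes next to Alox12 on its chromosome were looked at after its values were seen. In RefSeq order Rnasek, an endoribonuclease gene, lies on one side, and Alox12e, Alox15, Pelp1 and Arrb2 follow on the other. Rnasek read 957, 873 and 1188 in controls and 835, 737 and 977 in FOG1 ki/ki, a difference of -0.24 (SE 0.18, limma adjusted p = 0.968). Arrb2, which encodes a beta-arrestin, differed by 0.09 and the nuclear receptor cofactor gene Pelp1 by 0.30. Alox15 and Alox12e were too dim to be tested, at no more than 19.7 and 14.1 on any array. None of the measured neighbours was as far below control as Alox12.

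The genes whose profile over the 6 arrays was most like that of Alox12, by the root-mean-square difference of log2 values centred on their mean, were Nacc2 (0.41), AI593442 (0.47), Gp6 (0.47), Fbxo2 (0.47) and Tmem140 (0.49). They were picked for this likeness among 11260 genes, so their own low values are no separate result. Nacc2 read 261, 429 and 1268 in controls and 55.1, 76.3 and 188 in FOG1 ki/ki. Gp6 read 702, 928 and 1500 in controls and 345, 264 and 600.2 in FOG1 ki/ki. Nacc2, AI593442, Gp6 and Fbxo2 share with Alox12 the order of the 3 controls, lowest in replicate 1 and highest in the FOG1+/+ replicate 3, whereas Tmem140 was highest in control replicate 2.

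**Figure D2:**
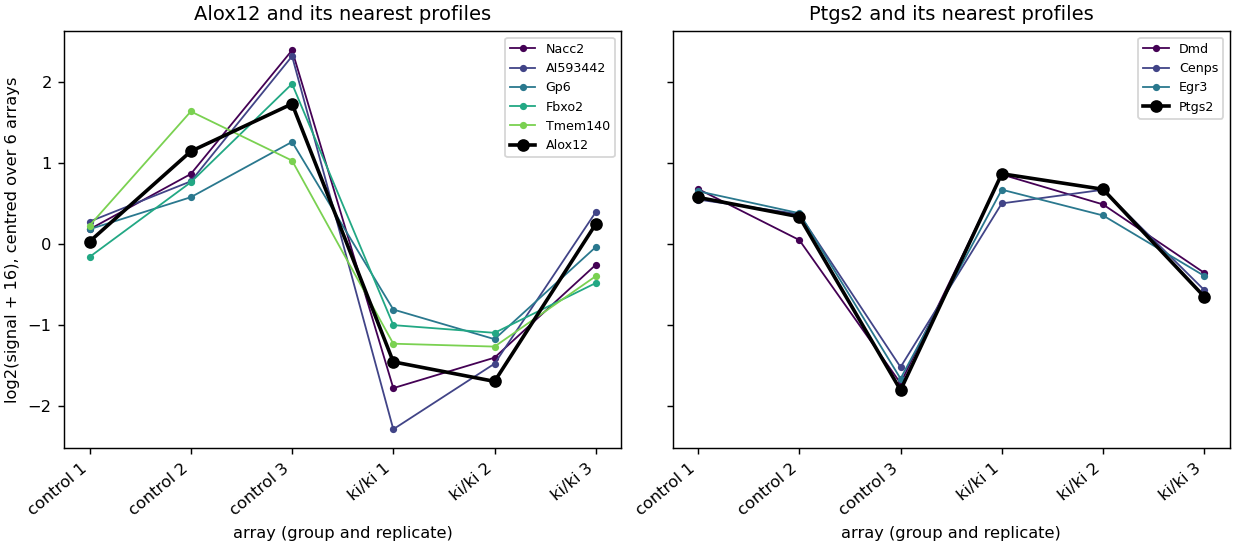
Left, log2(signal + 16) centred over the 6 arrays for Alox12 (black) and the 5 genes nearest to it; right, the same for Ptgs2 and the 3 genes nearest to it; each point is one array. Alox12 is high on control replicates 2 and 3 and low on FOG1 ki/ki replicates 1 and 2. Control replicate 1 lies between these, with FOG1 ki/ki replicate 3 above it. Ptgs2 is low on both replicate 3 arrays.

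Alox5 encodes the lipoxygenase that starts leukotriene synthesis. It read 1369, 1593 and 2028 in controls and 1711, 2485 and 2769 in FOG1 ki/ki. The FOG1 ki/ki array was higher in each pair, and the groups overlapped, since FOG1 ki/ki replicate 1 read below control replicate 3. The mean was 1663 ± 335 and 2321 ± 548 (SD, n = 3 each). The difference was 0.47 (SE 0.22, 95% interval -0.03 to 0.97, limma adjusted p = 0.806), and with the block the interval was 0.24 to 0.70 (limma adjusted p = 0.0825). Within pairs it was 0.32, 0.64 and 0.45.

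Mast cells and basophils are known for strong leukotriene synthesis, and their markers were higher in FOG1 ki/ki. Of 10 tested markers, 10 stood above control, where 44.9% of all genes stood below it. With the block 1 passed, Ms4a2, a chain of the IgE receptor, which rose, where 0.835% of all genes passed. The summed signal of the 14 measured markers was 286 to 3415 in controls and 6594 to 6852 in FOG1 ki/ki. Fcer1a, another IgE receptor chain, and Gzmb, a granzyme, were the brightest of the list, and Mcpt4 and Tpsab1, which encode mast cell proteases, were under 10.3, the level of the filter, on every array. The low control value came from the FOG1+/+ culture, with 286 against 3415 and 3300 in the FOG1+/- cultures. In that culture Alox5 read 2028, the highest of the controls. Alox5 relative to the summed mast cell and basophil signal had pair differences of -0.69, -0.36 and -4.10 on the log2 scale. In pair 3 Fcer1a went from 93.1 to 3912 and Gzmb from 5.96 to 1785, which was most of the change in that sum. Of the other leukocyte lists, monocyte and macrophage markers were below control in 16 of 16 tested cases, where 44.9% of all genes were. Neutrophil markers were below in 10 and above in 4 of 14 cases. Eosinophil markers were below in 2 and above in 2, and lymphoid markers below in 3 and above in 2. The part of any of these cells in the Alox5 values was not tested.

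Alox5ap, whose product presents arachidonic acid to the Alox5 enzyme, was nearly level within pairs. It read 1808, 2621 and 2760 in controls and 1786, 2477 and 2796 in FOG1 ki/ki. The arrays differed by replicate number, with both replicate 1 arrays lowest, and not by group. The difference was -0.03 (95% interval -0.53 to 0.47, and -0.21 to 0.16 with the block), and the pair differences were -0.02, -0.08 and 0.02. Its sign turned in 4 of 9 fits that left out 1 array or a pair.

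Ltc4s, the synthase that joins glutathione to the leukotriene precursor, was dim. It read 13.4, 15.9 and 14.2 in controls and 12.8, 37.8 and 29.5 in FOG1 ki/ki. FOG1 ki/ki replicates 2 and 3 stood above the controls, and replicate 1 stood below them. The difference was 0.44 (SE 0.29, limma adjusted p = 0.945), and it was 0.71 with a pseudocount of 1 and 0.20 with one of 64, so its size is set largely by the pseudocount.

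Pla2g4a, the phospholipase that supplies both branches, stayed in a narrow range. It read 1272, 1168 and 1590 in controls and 1276, 1277 and 1359 in FOG1 ki/ki. The difference was -0.03 (95% interval -0.38 to 0.32), with pair differences of 0.0048, 0.13 and -0.22. The FOG1 ki/ki values lay within the range of the controls, and without the FOG1+/+ array the difference was 0.10.

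Tbxas1, thromboxane synthase, was slightly lower in each pair. It read 1507, 1794 and 2121 in controls and 1472, 1584 and 1889 in FOG1 ki/ki. Within both groups replicate 1 was lowest and replicate 3 highest, and the groups overlapped. The difference was -0.13 (SE 0.16, 95% interval -0.51 to 0.26, limma adjusted p = 0.999), and with the block the interval was -0.33 to 0.08. The intervals leave out a change of Tbxas1 as large as that of Alox12.

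Ptgs2, the inducible cyclooxygenase, read 810, 684 and 142 in controls and 995, 869 and 337 in FOG1 ki/ki. Both replicate 3 arrays were far below the other arrays, and within each pair FOG1 ki/ki was higher. The difference was 0.60 (SE 0.66, 95% interval -0.95 to 2.14, limma adjusted p = 0.999). Within pairs it was 0.29, 0.34 and 1.15, and with the block the interval was 0.12 to 1.07 (limma adjusted p = 0.197). Without the FOG1+/+ array, but with FOG1 ki/ki replicate 3 kept, the unblocked difference was -0.16. Without both replicate 3 arrays it was 0.32. A second, dimmer Ptgs2 probe set read 18.8, 20.4 and 4.35 in controls and 32.8, 26.4 and 2.87 in FOG1 ki/ki, so that its pair 3 went the other way.

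The profiles nearest to Ptgs2 were those of Dmd, Cenps and Egr3, each at a root-mean-square difference of 0.19 to 0.20. Egr3, an immediate early transcription factor, read 159, 129 and 19.2 in controls and 162, 127 and 68.9 in FOG1 ki/ki. The summed neutrophil, eosinophil, fibroblast and lymphoid lists were also lowest on both replicate 3 arrays. The other marker lists were not, among them the megakaryocyte list, at 27545 and 24215 on the control and FOG1 ki/ki arrays of replicate 3. The summed neutrophil list read 3181 and 5165 on the control and FOG1 ki/ki arrays of replicate 3, against 10673 to 19782 on the other 4. The summed eosinophil list read 45.2 and 111 on those arrays, against 1460 to 2233. The part of these cells in the Ptgs2 values was not tested.

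Hpgd, the dehydrogenase that inactivates prostaglandins, was the 1 gene of the 9 whose groups did not overlap, where 11.3% of all genes tested did not. It read 267, 272 and 264 in controls and 140, 221 and 204 in FOG1 ki/ki. The controls lay close together and all FOG1 ki/ki arrays below them. The difference was -0.50 (SE 0.25, limma adjusted p = 0.862, and 0.234 with the block). Within pairs it was -0.86, -0.28 and -0.35. A second Hpgd probe set read 290, 224 and 218 in controls and 179, 216 and 188 in FOG1 ki/ki, a difference of -0.30, also without overlap.

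Monocyte and macrophage markers were lower alongside Hpgd. Of 16 tested markers, 16 were below control, where 44.9% of all genes were, and 0 passed in either fit. Their summed signal was 11549 to 20478 in controls and 5592 to 15552 in FOG1 ki/ki, with log2 differences of -1.44, -0.40 and -0.10 in pairs 1, 2 and 3. The brightest, Lyz2 and Ctss, a lysozyme and a cathepsin, were over 1190 on every array, and Cd163 and Timd4 were under the filter level on every array. Hpgd relative to this sum had pair differences of 0.59, 0.12 and -0.25 on the log2 scale. The part of these cells in the Hpgd values was not tested.

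Hpgds, the haematopoietic prostaglandin D synthase, was dim and uneven. It read 66.0, 49.9 and 37.1 in controls and 22.6, 43.5 and 48.1 in FOG1 ki/ki. FOG1 ki/ki replicate 1 was the lowest of all arrays, and in pair 3 the FOG1 ki/ki array was the higher one. The difference was -0.32 (SE 0.32, limma adjusted p = 0.997), and it was 0.06 without the replicate 1 pair.

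**Figure D3:**
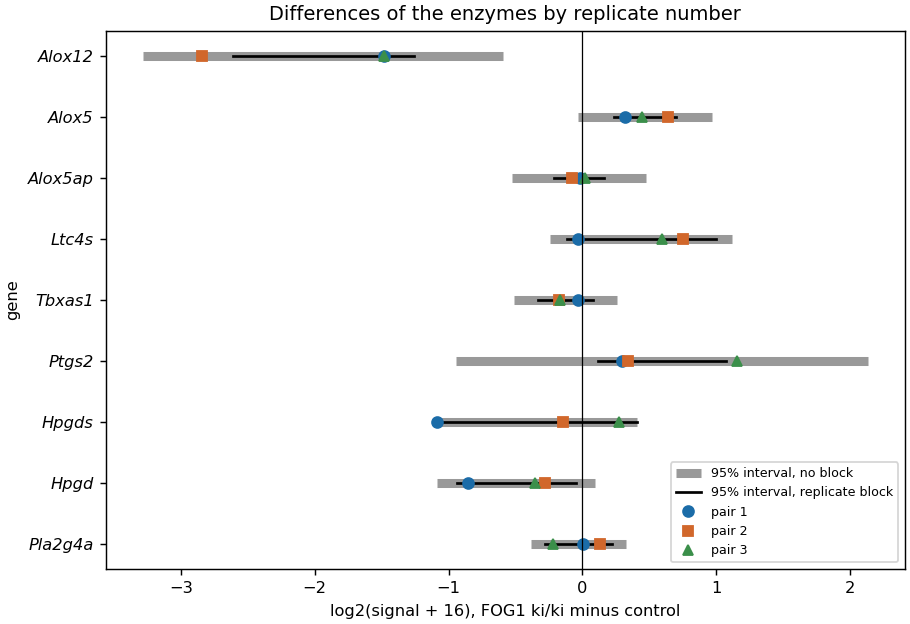
Differences in log2(signal + 16), FOG1 ki/ki minus control, of the 9 genes; symbols are the 3 pairs, grey bars the 95% intervals of the unblocked limma fit and black lines those of the fit with the replicate block. The blocked interval of Alox12, -2.61 to -1.26, lies farthest from 0, and those of Pla2g4a, Alox5ap and Tbxas1 span 0.

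The rest of the pathway was taken from 4 lists of 57 genes, of which 52 had a probe set of their own and 36 were tested. Among the 36, 15 stood above control and 21 below (median -0.10), and 0 passed in either direction with limma, with or without the block, where 0.151% and 0.835% of all genes passed. At an unadjusted p under 0.05 there were 2 of 36, where 6.69% of all genes tested had such a p, or 11 with the block, where 18.4% did. Of 9 phospholipase and fatty acid genes 4 were higher and 5 lower. Pla2g10, a secreted phospholipase, had a control mean of 166 and a FOG1 ki/ki mean of 32.6 (difference -1.69, SE 0.52, limma adjusted p = 0.462), which next to Alox12 was the largest difference among the tested genes of the pathway. Acsl4, which activates arachidonic acid, differed by 0.28 and the lysosomal phospholipase gene Pla2g15 by -0.50.

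Of 8 other prostanoid genes 3 were higher and 5 lower. Abcc4, a transporter of platelet granules that also exports prostaglandins, had means of 645 and 368 (difference -0.78, SE 0.25, limma adjusted p = 0.503, and 0.0793 with the block). The carbonyl reductase gene Cbr1 differed by 0.66 and Ptges, an inducible prostaglandin E synthase, by -0.48. Of 11 other lipoxygenase and leukotriene genes 6 were higher and 5 lower, with the epoxide hydrolase gene Ephx2 at -0.78, Cotl1, whose product binds the Alox5 enzyme, at 0.52, and the glutathione transferase gene Mgst1 at -0.96. The other 5 lipoxygenases with a probe set, Alox15, Alox8, Alox12b, Aloxe3 and Alox12e, were below the filter, with no signal over 19.7.

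Of 8 eicosanoid receptors 2 were higher and 6 lower. Tbxa2r, the thromboxane receptor, had means of 361 and 342 (difference -0.08, SE 0.21, limma adjusted p = 0.999). The cysteinyl leukotriene receptor Cysltr2 had means of 62.3 and 21.2 (difference -1.11, SE 0.56, limma adjusted p = 0.858, and 0.0649 with the block). Cysltr1 differed by -0.70, with means of 27.1 and 12.4, and the leukotriene B receptor Ltb4r1 by -0.40. For both ends of thromboxane signalling that were measured, Tbxas1 and Tbxa2r, the estimates thus lay within 0.13 of control on the log2 scale. Their SEs were 0.16 and 0.21, and the Tbxa2r pair differences were -0.39, 0.18 and -0.04, so larger differences are not left out.

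**Figure D4:**
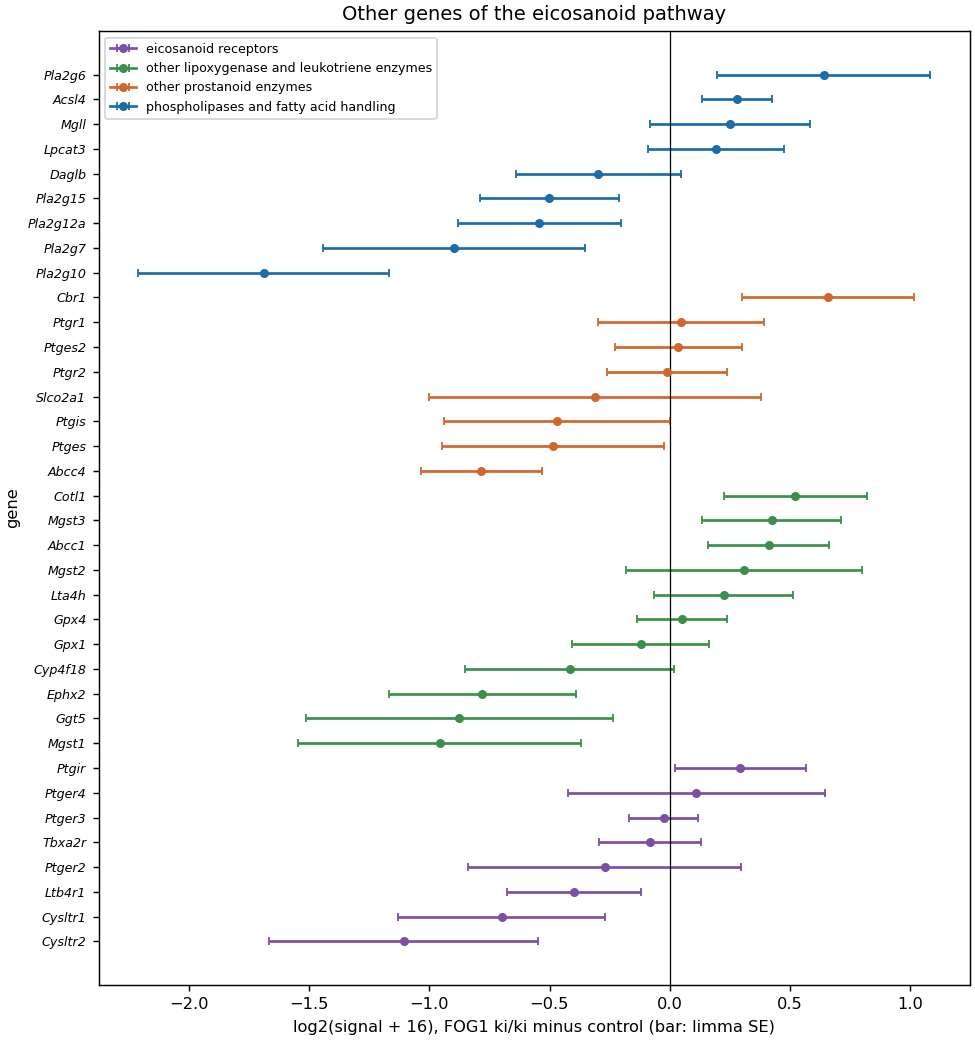
Differences in log2(signal + 16), FOG1 ki/ki minus control, of the 36 other pathway genes tested, coloured by list, with limma standard errors as bars. Pla2g10 at -1.69 and Cysltr2 at -1.11 lie farthest from 0, and Tbxa2r at -0.08 lies near it.

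Of the other cell types whose markers were measured, fibroblast genes were below control in 10 of 10 tested cases, where 44.9% of all genes were. Their summed signal was 269 to 7366 in controls and 160 to 2962 in FOG1 ki/ki, led by Col1a2 and Col1a1, which encode collagen. Endothelial markers were higher in 4 and lower in 4 of 8 cases, with Tek, an angiopoietin receptor, and Clec4g, a lectin, the brightest. With the block 1 of them, Tek, passed and rose, where 0.835% of all genes passed. Tested neutrophil markers were higher in 4 and lower in 10 of 14 cases, with S100a9 and S100a8 the brightest, and eosinophil markers in 2 and 2 of 4, with Prg2 and Siglecf. Of 8 measured erythroid markers, 5 were under 10.3 on every array, Hba-a1, Alas2, Slc4a1, Rhag and Rhd, while Hbb-b2 and Epor were the brightest. Of 11 hepatocyte markers 6 were under that level on every array, Alb among them, and Afp and Apoc2 were the brightest. Of 11 lymphoid markers 4 were under it, Cd3g, Pax5, Rag1 and Ncr1, and Il7r and Nkg7 were the brightest. The part of these cell types in the values of the enzymes was not tested.

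**Figure D5:**
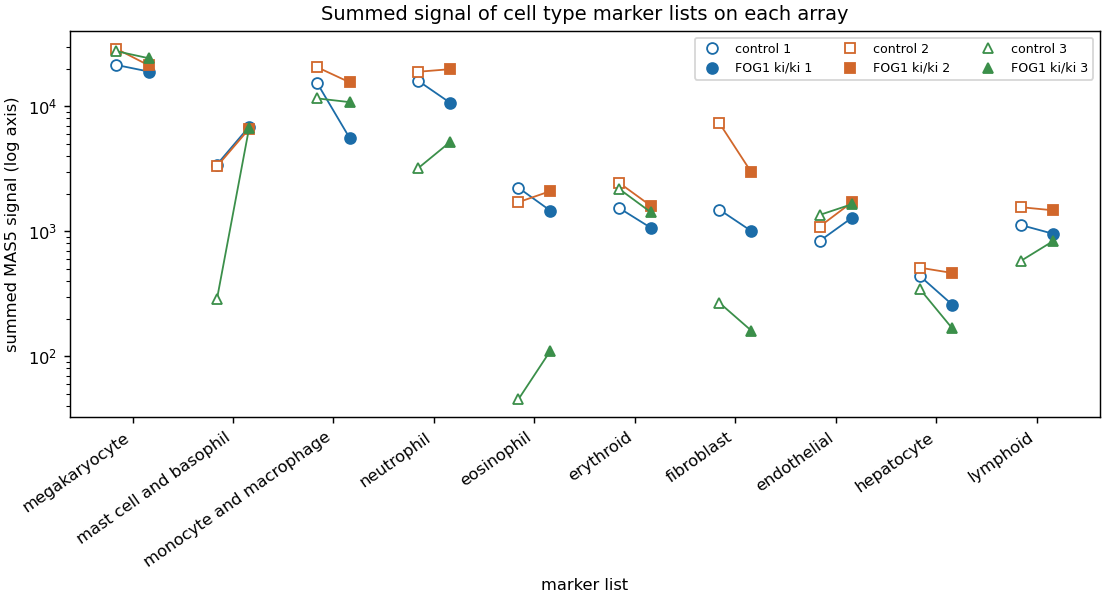
Summed MAS5 signal (log axis) of 10 lists of cell type markers; open symbols are control and filled symbols FOG1 ki/ki arrays, joined by replicate number. The mast cell and basophil list is higher in FOG1 ki/ki in each pair and lowest, at 286, in control replicate 3, and the megakaryocyte list is slightly lower in each pair.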

How the data were processed

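The values the authors deposited were linear MAS5 intensities of probe sets, per the submitters' processing notes; version and genome build are not given in the sources used here. The trimmed mean of each array (2% off either end) was 150, so arrays had been scaled to one target, and a change in total RNA cannot be seen. Per the labels' protocols, RNA was amplified and labelled with the Ovation system. They describe sense-strand cDNA made with an exon module, while the annotation is that of a 3′ expression array. Whether this affected any signal was not tested. The number of arrays limits the precision.

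Control probe sets (64) and the dimmer 50% of the rest were dropped. The brightest probe set assigned to a single gene stood for that gene, and 11260 genes were tested on log2(signal + 16), which understates changes of dim genes, with limma 3.58.1 in R 4.3.3 (lmFit, eBayes with a trend, Benjamini-Hochberg, threshold 0.05). The fit was tested on simulated data. Python 3.11.15 did the rest. Sequences are from RefSeq (GRCm38.p6).

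The labels call the cultures biological replicates without naming litters. Deviations from group means correlated at 0.438, 0.648 and 0.597 over 22518 probe sets for arrays of equal number, and at 0.0229 or lower otherwise. Deviations cancel within a group, so high values for equal numbers force lower ones elsewhere, and the contrast is partly built in. The numbers were read as pairs. The block (replicate number as a fixed term) is an alternative. Other alternatives were pseudocounts, scaling, filters, probe set choice and left-out arrays.

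The members and lists were chosen with earlier results of these data known. All members were named, with up to 3 genes per pathway list by smallest unadjusted p, Tbxa2r, the nearest profiles of Alox12 (5 genes) and of members ranging over 2 log2 units (3 genes), and the 2 brightest markers per list. Marker genes named beyond these, the neighbours of Alox12, the promoter motifs, and the ratios within arrays were chosen after values were seen.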

Additional observations from a re-analysis of the deposited data

How the results depend on the processing

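All 9 genes kept the direction of their difference under every planned change of pseudocount, scaling, filter, probe set choice or eBayes trend and with the replicate block, and 0 of them passed there, with only 7 of the 9 tested in the brightest 25% of probe sets. Without 1 array or pair Alox12 lay between -2.55 and -1.49, while 4 genes turned sign: Alox5ap (-0.216 to 0.159), Ptgs2 (-0.159 to 1.07), Hpgds (-0.617 to 0.0620) and Pla2g4a (-0.124 to 0.0961). The median of the 9 then ranged from -0.164 to -0.00441. Of all genes tested, 17 passed in the main setting, 8 with a pseudocount of 1, 3 in the brightest 25% of probe sets, 1 with no filter, 1 with each probe set on its own and 94 with the replicate block. The count was 0 to 2 without 1 array or a pair. The blocked fit was then varied after its result was seen. It called 99 genes with a pseudocount of 1, 97 with quantile normalization, 104 with median centring and 75 in the brightest 25%, and in each of these 1 of the 9 genes, Alox12, fell. It called 77 genes with a pseudocount of 64, 8 with no filter, 76 with the mean of a gene's probe sets and 33 without a trend, and Alox12 did not pass there. Blocked fits without the pair numbered 1, 2 or 3 called 331, 114 and 310 genes, and 1 of the 9, Alox12, each time, while Hpgds stood at 0.0620, Alox5ap at 0.000757 (with the median of the 9 at -0.0997) and Pla2g4a at 0.0663. The cause of these changes was not tested. With 3 arrays a group, only large differences can pass, and the sizes for Ltc4s and Hpgds, which are dim, depend on the pseudocount.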
